A study of Mus musculus with 6 samples.

Results

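The genes of the HoxA cluster were compared between whole mouse embryos at embryonic day 8.5 that lacked both Fzd2 and Fzd7 (Fz2-/-; Fz7-/-, the double knockout) and embryos that lacked Fzd7 alone (Fz2+/+; Fz7-/-, the single knockout). Both groups carried the Fz7 deletion, had a mixed C57BL6/129 background and were labelled as mixed gender, and each was measured on 3 arrays, called replicates 1 to 3. Fzd2 and Fzd7 encode Frizzled receptors for Wnt ligands, and the groups compared here differ, by label, in genotype at Fzd2. Wild-type embryos were not analysed here, and whether the samples were single embryos or pools, from 1 litter or several, is not stated in the labels, so the p-values may reflect technical spread alone.

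The members were the 9 genes Hoxa2, Hoxa3, Hoxa4, Hoxa5, Hoxa6, Hoxa7, Hoxa9, Hoxa10 and Hoxa11, all on mouse chromosome 6. A probe set counted for a gene when the platform annotation gave it that single symbol, and 8 of the 9 members had 1, out of 18193 genes measured in this way. Hoxa6 had no such probe set and was not analysed here. The 8 genes had 15 probe sets in all, and the brightest of each gene stands for it unless another is named. Values are log2 expression levels, so a difference between groups is a ratio on the linear scale.

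Hox genes encode homeodomain transcription factors that tell cells where they lie between head and tail. Their order along the chromosome matches the order in which they come on in time and the level of the body where their expression begins, so that Hoxa2 acts in the hindbrain while Hoxa10 and Hoxa11 act at the rear of the trunk and in limbs and the reproductive tract. Wnt, FGF and retinoic acid signals and the Cdx factors are known to act upstream of Hox genes in the elongating embryo, and Pbx and Meis proteins bind DNA together with Hox proteins.

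The genotype labels held for Fzd2, at 7.30, 7.69 and 7.63 in replicates 1 to 3 of the double knockout, against 9.86, 9.99 and 10.01 in the single knockout. It fell to 18.7% of the single knockout level (log2 difference -2.42, SE 0.11, n = 3 per group, limma adjusted p = 0.00567). Fzd7 averaged 4.89 ± 0.10 in the double knockout and 4.92 ± 0.01 in the single knockout (SD, n = 3 each), which checks no label because it is deleted in both. Replicate 1 of the double knockout was unlike the remaining 5 arrays: 479 genes differed from the mean of the others by over 1 log2 unit, against 18 to 37 genes for any other array. Summed levels of markers of other stages and tissues moved with that array, and not in that array alone. The log2 of the summed level of 14 measured visceral endoderm genes (of 15 listed) was 15.52, 13.01 and 13.05 in the double knockout and 13.03 to 13.45 in the single knockout. For 12 of 12 epiblast genes it was 13.79, 12.87 and 13.12 in the double knockout, against 12.82 to 12.88 in the single knockout. For 9 of 13 trophoblast genes it was 9.65, 8.26 and 8.28 in the double knockout, against 8.32 to 8.35 in the single knockout. For 11 of 12 primitive erythroid genes it was 9.03, 15.10 and 11.54 in the double knockout, against 14.54 to 15.07 in the single knockout, so double knockout replicate 3 was also low in red cell genes. A summed level rests mostly on its brightest genes. Gene by gene, with all arrays, 14 of 14 visceral endoderm and 11 of 12 epiblast genes lay higher, and 10 of 11 primitive erythroid genes lay lower. The trophoblast genes were split, with 5 higher and 4 lower (median 0.040). Without double knockout replicate 1, 0 of 12 epiblast genes lay lower (median difference 0.21), and 11 of 11 primitive erythroid genes did (median -0.55). In that setting 9 of 14 visceral endoderm genes (median -0.10) and 6 of 9 trophoblast genes (median -0.080) lay lower, against 53.3% of all genes. Leaving out replicate 1 thus does not remove all of these differences. Their part in the Hox values was not tested, and the differences of the Hox genes are given with and without replicate 1. In whole-embryo RNA, fewer cells that express a gene and less RNA per cell cannot be told apart.

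No HoxA gene passed the test over all genes. From Hoxa2 to Hoxa9 the double knockout means lay below the single knockout means, with log2 differences of -0.27 to -1.10, while Hoxa10 and Hoxa11 lay above by 0.28 and 0.30. The groups did not overlap for 4 of the 8 genes, Hoxa3, Hoxa4, Hoxa5 and Hoxa9, all with every double knockout array below every single knockout array, and 6.60% of all genes were separated in that direction. No member was separated in the other direction, as 4.85% of all genes were. Adjusted p was under 0.05 for 0 of 8 members, against 0.00550% of all genes lower (Fzd2 alone) and 0% higher. Unadjusted limma p was under 0.05 for 3 members, Hoxa3, Hoxa4 and Hoxa5, all lower, against 3.00% of all genes lower, and for 0 members higher, against 1.96% of all genes. The separated genes had an exact permutation p of 0.1 each, the lowest value possible here. The median over the 8 genes was -0.41, with 6 below 0, against a median of -0.0093 and 53.8% below 0 over all genes.

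**Figure D1:**
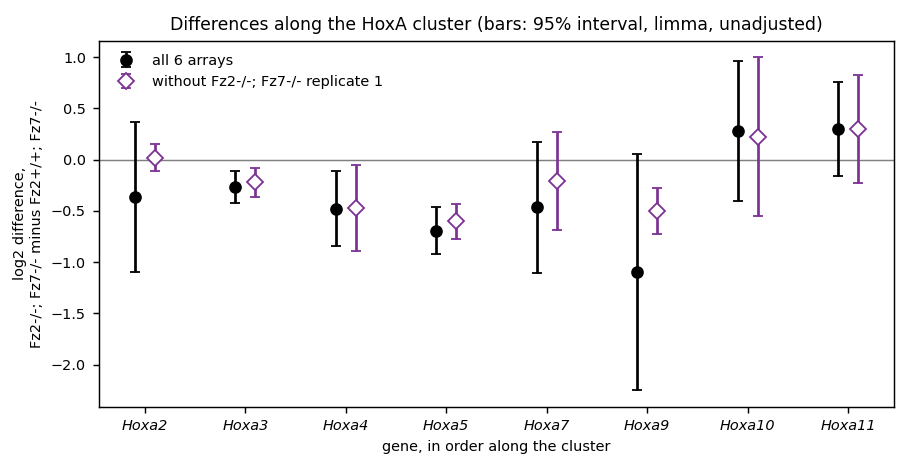
The log2 difference (double knockout minus single knockout, vertical axis) is shown for each measured HoxA gene in cluster order, with 95% limma intervals that are not adjusted for the number of genes. Filled circles use all 6 arrays and open diamonds leave out double knockout replicate 1. The Hoxa3, Hoxa4 and Hoxa5 intervals lie below 0 both ways, and that of Hoxa9 only without replicate 1. Those of Hoxa2, Hoxa7, Hoxa10 and Hoxa11 span 0 both ways.

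Promoter windows of 3 genes are shown for genes at the extremes of the differences with all 6 arrays. Hoxa5 had the smallest unadjusted p of the members, Hoxa9 had the lowest difference (Hoxa5 did without double knockout replicate 1), and Hoxa11, whose groups overlapped, had the highest. Each window runs 5′ to 3′ on the gene's own strand from 250 bases before to 50 bases after a RefSeq start (GRCm38.p6, minus strand), and capitals mark a motif match on either strand.
Hoxa5: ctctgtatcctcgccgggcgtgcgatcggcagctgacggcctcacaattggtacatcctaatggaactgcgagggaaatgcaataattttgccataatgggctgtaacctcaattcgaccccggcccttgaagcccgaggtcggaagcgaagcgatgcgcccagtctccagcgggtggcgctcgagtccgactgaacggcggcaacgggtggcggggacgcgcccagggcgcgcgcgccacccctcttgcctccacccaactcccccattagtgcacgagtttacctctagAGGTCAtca
Hoxa9: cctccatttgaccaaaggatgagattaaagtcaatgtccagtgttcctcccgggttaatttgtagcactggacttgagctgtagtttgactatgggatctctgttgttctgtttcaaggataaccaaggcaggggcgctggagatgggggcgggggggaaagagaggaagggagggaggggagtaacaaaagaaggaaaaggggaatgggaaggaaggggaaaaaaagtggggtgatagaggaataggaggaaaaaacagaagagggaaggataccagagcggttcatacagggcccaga
Hoxa11: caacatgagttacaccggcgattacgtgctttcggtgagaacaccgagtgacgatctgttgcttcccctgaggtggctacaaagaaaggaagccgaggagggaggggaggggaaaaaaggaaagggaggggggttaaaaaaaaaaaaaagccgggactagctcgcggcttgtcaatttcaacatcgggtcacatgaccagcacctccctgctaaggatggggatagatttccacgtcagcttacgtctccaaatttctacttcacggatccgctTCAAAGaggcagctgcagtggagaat
The Hoxa5 window is chr6:52204538-52204837, the Hoxa9 window chr6:52227321-52227620 and the Hoxa11 window chr6:52245761-52246060. In the 9 windows that RefSeq gave for 8 of the 9 members, 4 short motifs were searched on both strands, with no letters shared between matches. The core CTTTGA, read by the TCF/LEF factors of the Wnt pathway, was in 2 windows (Hoxa11 and the downstream of the Hoxa10 pair), and in 16.0% of all 32851 promoter windows. The retinoic acid receptor core AGGTCA was in 1 window, that of Hoxa5, starting 42 bases after the start site, and in 16.3% of all windows. The Cdx core TTTATG was in the Hoxa7 window alone, in 2 copies, and in 11.9% of all windows. The TATA core TATAAA was in 1 of the Hoxa10 windows and in 13.6% of all windows. The Hoxa9 window held no match. The windows also differed in base composition, with 61.7% G and C in the Hoxa5 window, 49.7% in the Hoxa9 window and 51.0% in the Hoxa11 window, against a median of 52.7% over all windows. Hoxa5 had 29 CpG pairs, Hoxa9 had 4 and Hoxa11 had 15, against a median of 7. These matches are descriptions of letters and are not evidence of binding.

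Hoxa2, at the anterior end of the members, patterns the hindbrain and the second branchial arch. It read 6.24, 7.38 and 7.39 in the double knockout and 7.35, 7.36 and 7.39 in the single knockout. Only double knockout replicate 1 was low, by 1.13 below the single knockout mean, and the remaining 5 arrays agreed within 0.04 log2 units. The difference was -0.36 (SE 0.31, limma adjusted p = 0.877) with all arrays and 0.020 (SE 0.05) without replicate 1, where its 95% interval ran from -0.11 to 0.15. The sign of the Hoxa2 difference thus rested on 1 array.

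Hoxa3 acts in the neural crest and pharyngeal pouches that give rise to the thymus and parathyroid. It read 7.30, 7.42 and 7.47 in the double knockout, against 7.69, 7.62 and 7.69 in the single knockout, with a small spread in both groups. This probe set is of a type whose probes can match several transcripts, although the annotation gives it 1 symbol. The groups did not overlap, and the difference was -0.27 (SE 0.07, limma adjusted p = 0.872), or 82.9% of the single knockout level. Without replicate 1 it was -0.22 (SE 0.06). A second bright Hoxa3 probe set read 6.87, 6.93 and 6.87 in the double knockout, against 7.12, 7.05 and 7.14 in the single knockout, again without overlap, with a difference of -0.21 (-0.20 without replicate 1). The 2 dim Hoxa3 probe sets, with group means of 4.15 to 4.47 and below the array medians of 5.79 to 5.82, overlapped between groups and differed by -0.068 and -0.28, or -0.12 and -0.27 without replicate 1.

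Hoxa4, a gene of the neck and anterior trunk, was dim in all 6 arrays. Its brighter probe set read 4.35, 4.66 and 4.07 in the double knockout and 4.72, 4.82 and 4.96 in the single knockout. The groups were separated by 0.06 at their nearest, the difference was -0.48 (SE 0.15, limma adjusted p = 0.872), and replicate 1 was not its lowest array. Without that array the difference was -0.47. The fainter probe set, at 3.15, 3.26 and 3.43 in the double knockout, against 3.53, 3.65 and 3.58 in the single knockout, was separated as well, with a difference of -0.31 (-0.24 without replicate 1). That set is of a type whose probes can match further transcripts. Both sets lay below the array medians, where the deposited values compress differences.

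Hoxa5, which acts in the cervical and upper thoracic skeleton, the lung and the diaphragm's motor neurons, had the smallest unadjusted p of the members. It read 7.93, 8.28 and 8.13 in the double knockout, against 8.82, 8.84 and 8.77 in the single knockout. The highest double knockout array lay 0.48 below the lowest single knockout array, so the gap was wider than the range of either group. The difference was -0.69 (SE 0.10, 95% interval -0.92 to -0.46), or 61.8% of the single knockout level, at unadjusted p = 0.000249 and limma adjusted p = 0.872. Its rank by unadjusted p was 3 among 18193 genes. Without replicate 1 the difference was -0.60 (SE 0.07, limma adjusted p = 0.475), or 65.9% of the single knockout level, and so was nearly as large without that array. An exact two-sided permutation test gave p = 0.1, below which a design of 3 against 3 cannot go. The other Hoxa5 probe set, of a type whose probes can match further transcripts, read 7.997, 8.116 and 8.057 in the double knockout, against 8.478, 8.291 and 8.438 in the single knockout. It was also separated, but its difference was smaller, at -0.35 with all arrays and -0.32 without replicate 1.

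Hoxa7, a gene of the thoracic trunk, had groups that overlapped. It read 7.35, 8.06 and 8.19 in the double knockout and 7.93, 8.47 and 8.61 in the single knockout. Replicate 1 was the lowest array of each group, and single knockout replicate 1 lay below double knockout replicates 2 and 3. The difference was -0.47 (SE 0.27, limma adjusted p = 0.872), and -0.21 (SE 0.20) without double knockout replicate 1. Its single probe set gave no second reading.

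Hoxa9, which acts in the posterior trunk and in blood progenitors, had the largest difference of the members with all 6 arrays, but Hoxa5 had the larger one (-0.60 against -0.50) without double knockout replicate 1. It read 8.19, 9.94 and 10.02 in the double knockout, against 10.60, 10.51 and 10.34 in the single knockout. Double knockout replicate 1 lay 2.29 below the single knockout mean, while replicates 2 and 3 lay 0.54 and 0.46 below it. The difference was -1.10 (SE 0.48, limma adjusted p = 0.872), or 46.7% of the single knockout level. Without replicate 1 it was -0.50 (SE 0.09, limma adjusted p = 0.677), or 70.7%, with a smaller error. The second Hoxa9 probe set read 6.97, 7.60 and 7.59 in the double knockout, against 7.84, 8.05 and 7.84 in the single knockout. It was separated too, and differed by -0.53 with all arrays and -0.32 without replicate 1.

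Hoxa10, a posterior gene of the lumbar region, limbs and uterus, had a difference above 0. It read 6.97, 6.69 and 6.92 in the double knockout, and 7.18, 6.56 and 5.99 in the single knockout, so the double knockout arrays lay inside the single knockout range. The difference was 0.28 (SE 0.28, 95% interval -0.40 to 0.96, limma adjusted p = 0.888), and 0.22 without double knockout replicate 1. Its sign rested on single knockout replicate 3, without which it was -0.012. The second Hoxa10 probe set was near the bottom of the scale, at 3.49, 3.58 and 3.52 in the double knockout, against 3.68, 3.74 and 3.58 in the single knockout. It differed by -0.14 (-0.12 without double knockout replicate 1), so the 2 sets disagreed in sign.

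Hoxa11, known for its part in the forearm, kidney and uterus, read 6.91, 6.79 and 7.04 in the double knockout and 6.94, 6.71 and 6.18 in the single knockout. As for Hoxa10, the single knockout spread was the wider one, replicate 3 was its lowest array and replicate 1 its highest. The difference was 0.30 (SE 0.19, 95% interval -0.16 to 0.76, limma adjusted p = 0.872) with all arrays and 0.30 (SE 0.22) without double knockout replicate 1, but 0.088 without single knockout replicate 3. The lowest arrays of Hoxa7 and of Hoxa10 and Hoxa11 were thus opposite ones within the single knockout, replicate 1 for Hoxa7 and replicate 3 for the posterior pair.

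**Figure D2:**
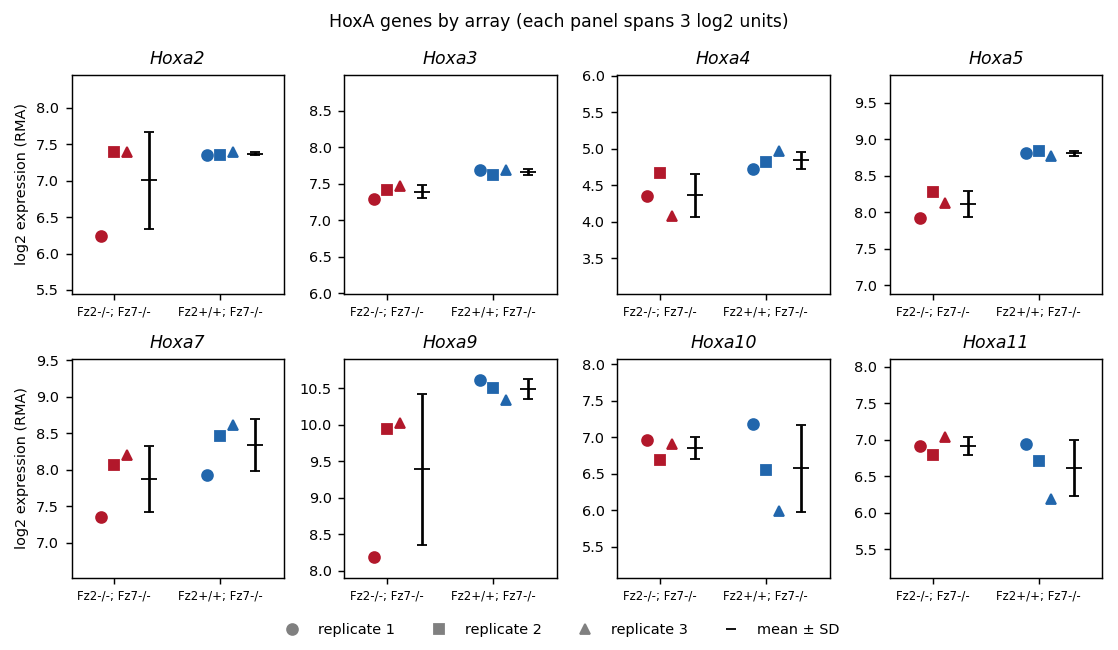
Log2 expression of each measured HoxA gene on its brightest probe set (vertical axis, 3 log2 units in every panel) is shown for the 3 double knockout arrays (red, left) and the 3 single knockout arrays (blue, right), with the mean and SD in black. The groups are separate for Hoxa3, Hoxa4, Hoxa5 and Hoxa9, and for Hoxa2 only double knockout replicate 1, at 6.24, departs from the other 5 arrays.

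Read along the cluster, double knockout replicates 2 and 3 differed most at Hoxa4. There replicate 3 was 0.77 and replicate 2 was 0.18 below the single knockout mean, with replicate 1 between them. Replicates 2 and 3 also lay apart at Hoxa10 (0.11 and 0.34 above that mean) and at Hoxa11 (0.18 and 0.43 above it). Relative to the single knockout mean, the mean over the 8 genes was -0.68, -0.18 and -0.18 in double knockout replicates 1 to 3. Replicate 1 was the lowest of the 3 for Hoxa2, Hoxa3, Hoxa5, Hoxa7 and Hoxa9, by the widest margin at Hoxa9. It was not the lowest for Hoxa4, Hoxa10 or Hoxa11. Below the single knockout mean lay 6 of 8 genes in replicate 1 and 5 of 8 in each of replicates 2 and 3, where Hoxa2 lay 0.019 and 0.021 above it. Without replicate 1 the median over the 8 genes was -0.21 and 5 lay below 0, against a median of -0.0067 and 53.3% below 0 over all genes. In that setting Hoxa3, Hoxa4, Hoxa5 and Hoxa9 had an unadjusted limma p under 0.05, all lower, against 3.76% of all genes lower, and 0 members passed after adjustment.

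**Figure D3:**
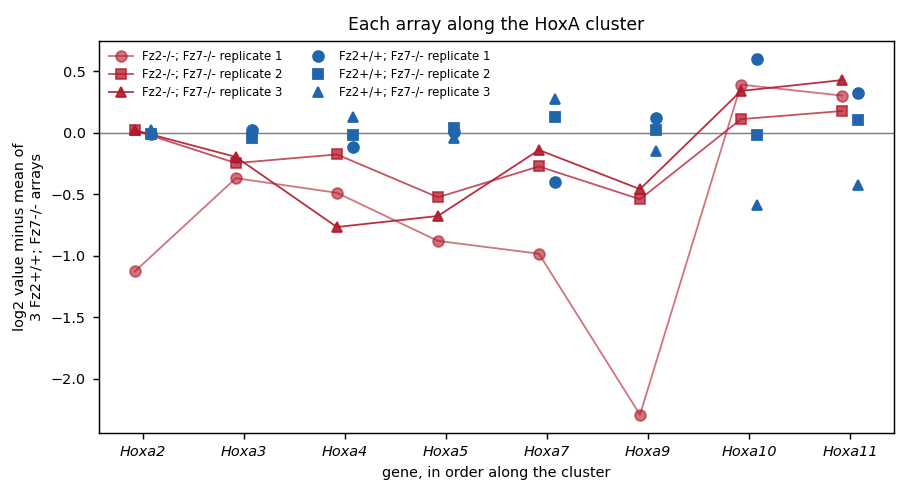
Each array's log2 value minus the single knockout mean (vertical axis) is shown for the HoxA genes in cluster order, with lines for the 3 double knockout arrays and blue points for the 3 single knockout arrays. Double knockout replicates 2 and 3 run from 0.019 and 0.021 at Hoxa2 through values of -0.54 and -0.46 at Hoxa9 to 0.18 and 0.43 at Hoxa11, and replicate 1 reaches -2.29 at Hoxa9.

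Neighbouring genes were set against each other within each array, a comparison added after the values were seen. Among the 7 neighbouring pairs, the within-array difference did not overlap between groups for Hoxa9 and Hoxa10 alone. No share over all genes was computed for such pairs. The difference of Hoxa9 minus that of Hoxa10 was -1.38 with all arrays and -0.72 without double knockout replicate 1, at an exact two-sided permutation p of 0.1, the smallest possible, and 0.7 after Benjamini-Hochberg adjustment over the 7 pairs. The step from Hoxa9 to Hoxa10 was thus the widest between neighbours, and none of the pairs could pass. The sign of its Hoxa10 part rested on single knockout replicate 3, without which the Hoxa10 difference was -0.012.

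The probe sets of a gene gave a second view of the same RNA. Over the 15 probe sets, 13 lay lower in the double knockout, and 8, belonging to Hoxa3, Hoxa4, Hoxa5 and Hoxa9, had groups that did not overlap, against 6.12% of all probe sets lower, while 0 were separated in the other direction, against 4.50%. These 8 are not independent readings, since they come from 4 genes and the same arrays. The annotated span of Hoxa3 also overlaps those of Hoxa4, Hoxa5 and Hoxa6 on the same strand, and no source used here gives the position of each probe set within these transcripts.

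**Figure D4:**
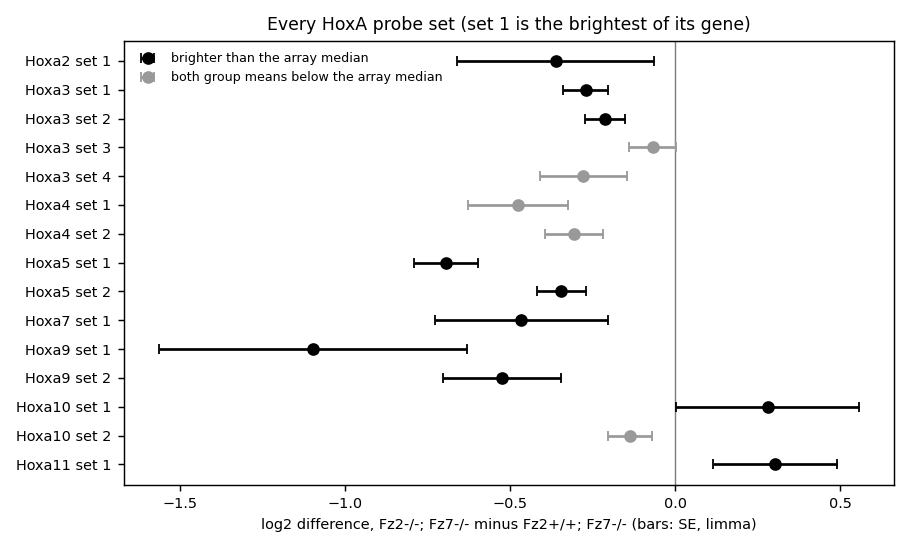
The log2 difference (double knockout minus single knockout, horizontal axis) is shown with its limma SE for all 15 HoxA probe sets, numbered by brightness within each gene. The sets of Hoxa3, Hoxa4, Hoxa5 and Hoxa9 lie on the lower side, from -0.068 to -1.10, and grey points mark sets whose group means are both below the array medians.

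The HoxA genes were set beside their paralogs, the genes of the same numbered group in the HoxB, HoxC and HoxD clusters, which arose by duplication and share much of their function. In group 5 the Hoxa5 difference of -0.69 stood beside -0.84 for Hoxc5 and 0.0063 for Hoxb5, which read 7.09, 7.08 and 7.16 in the double knockout and 7.12, 7.07 and 7.12 in the single knockout. Without double knockout replicate 1 these were -0.60, -0.55 and 0.015, so Hoxa5 was then the lower of the first pair. In group 9 the Hoxa9 difference of -1.10 stood beside -0.71 for Hoxc9, -0.51 for Hoxb9 and 0.021 for Hoxd9, and without double knockout replicate 1 these were -0.50, -0.51, -0.21 and 0.068. The difference between Hoxa9 and Hoxc9 was then 0.015. In group 4 Hoxa4 differed by -0.48, beside -0.22 for Hoxb4 and -0.87 for Hoxc4, and without replicate 1 these were -0.47, -0.19 and -0.45. In group 3 Hoxa3 (-0.27) was nearer to 0 than Hoxb3 (-0.44) and Hoxd3 (-0.71), which without replicate 1 were -0.22, -0.26 and -0.16. In group 2 Hoxb2 differed by -0.014, beside -0.36 for Hoxa2, and in group 7 Hoxb7 by 0.0097, beside -0.47 for Hoxa7. Without replicate 1 these were 0.0018 for Hoxb2, 0.020 for Hoxa2, 0.034 for Hoxb7 and -0.21 for Hoxa7. In the posterior groups Hoxa10 (0.28) stood beside Hoxd10 (0.19) and Hoxc10 (-0.36), and Hoxa11 (0.30) beside Hoxd11 (-0.084). Without replicate 1 these were 0.22 for Hoxa10, 0.11 for Hoxd10, -0.21 for Hoxc10, 0.30 for Hoxa11 and -0.11 for Hoxd11. Hoxb7, Hoxc10, Hoxd10 and Hoxd11 were dim, with single knockout means of 5.54, 4.99, 4.94 and 3.77. Both group means of each lay below the array medians of 5.79 to 5.82, where the deposited values compress differences. A small difference in these paralogs therefore cannot be read as an absence of change.

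Over the other clusters as a whole, 5 of 7 measured genes of groups 1 to 4 lay lower (median -0.22), 6 of 10 of groups 5 to 9 (median -0.33) and 4 of 7 of groups 10 to 13 (median -0.028), and 0 passed the limma test in either direction. Unadjusted p was under 0.05 for 3, 5 and 0 of them, all lower, against 3.00% of all genes lower. The groups did not overlap for 4, 5 and 0 of them, again all lower, against 6.60% of all genes lower. Without replicate 1 the medians were -0.16, -0.24 and -0.061. The genes of groups 10 to 13 were faint. The log2 of their summed level was 7.46 to 7.59 over the 6 arrays, against 11.61 to 11.94 for groups 1 to 4 and 11.17 to 11.91 for groups 5 to 9. The deposited values compress differences at low levels, so the smaller posterior median cannot be read as an absence of change. The within-array difference between member and paralog was compared for 14 pairs, and no share over all genes was computed for it. Among those whose groups did not overlap, Hoxa5 was lower against Hoxb5 (difference of differences -0.70), Hoxa9 was lower against Hoxb9 (-0.59) and against Hoxd9 (-1.12), and Hoxa10 was higher against Hoxc10 (0.64). Without double knockout replicate 1 these were -0.62, -0.29, -0.57 and 0.44. The last of these sets Hoxa10 against a dim gene, since both Hoxc10 group means lay below the array medians. Each had an exact two-sided permutation p of 0.1, the smallest possible with 3 arrays a group, and 0.35 after Benjamini-Hochberg adjustment over the 14 pairs, so none could pass. Hoxa5 against Hoxc5 gave 0.14 with all arrays and -0.050 without replicate 1, with overlapping groups.

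**Figure D5:**
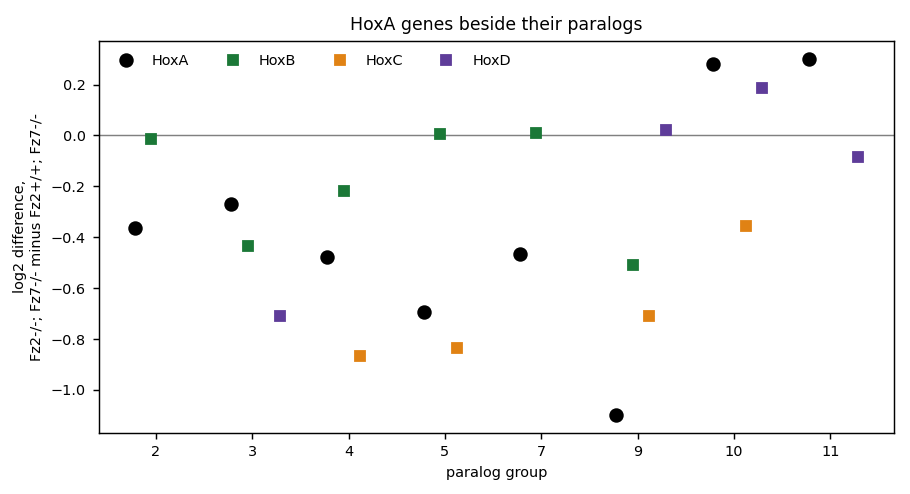
The log2 difference (double knockout minus single knockout, vertical axis) of each HoxA gene (black circles) is shown beside its measured paralogs in HoxB, HoxC and HoxD (coloured squares), by paralog group. In group 5, Hoxa5 (-0.69) and Hoxc5 (-0.84) lie apart from Hoxb5 (0.0063), and in group 9, Hoxd9 (0.021) lies apart from the other genes. Hoxb7, Hoxc10, Hoxd10 and Hoxd11 have both group means below the array medians.

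Genes that act with or upstream of Hox genes were read from fixed lists, and none passed the limma test over all genes in either direction. Of 8 measured cofactor genes of the Pbx, Meis and Pknox families, 8 lay lower, with a median of -0.057, and without double knockout replicate 1, 7 lay lower with a median of -0.024. Over all genes 53.8% and 53.3% lay lower in these settings, which also holds for the further lists. Relative to the single knockout mean, the cofactor mean was -0.16, -0.030 and -0.050 in double knockout replicates 1 to 3. In the single knockout arrays it was -0.031 to 0.042. Meis1, a partner of Hox proteins that includes those of the Hoxa9 type, differed by -0.20 (SE 0.10), or -0.10 without replicate 1, and 0 of the 8 had an unadjusted p under 0.05. Of 9 genes of the axial progenitors and their signals, 6 lay higher and 3 lower, with a median of 0.13, and -0.00095 without double knockout replicate 1, and 0 had an unadjusted p under 0.05. Cdx1, a direct activator of Hox genes, read 9.27, 7.08 and 7.56 in the double knockout and 7.50, 6.92 and 7.28 in the single knockout, so replicate 1, in which Hoxa9 was lowest, was highest in Cdx1. The Cdx1 difference was 0.73 (SE 0.54) with all arrays and 0.084 without replicate 1. Fgf8, the growth factor gene of the tail bud, differed by -0.19 (SE 0.12), or -0.066 without replicate 1.

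Of 12 measured genes of retinoic acid supply, breakdown and response, 8 lay lower, with a median of -0.061 (9 lower and -0.045 without double knockout replicate 1), and 1 had an unadjusted p under 0.05, lower, against 3.00% of all genes lower. That gene was Crabp2, which encodes a carrier that brings retinoic acid to its receptors. It read 11.40, 12.14 and 12.07 in the double knockout, against 12.25, 12.59 and 12.44 in the single knockout. The groups did not overlap, and 6.60% of all genes were separated in that direction. Crabp2 differed by -0.55 (SE 0.21, limma adjusted p = 0.872), or -0.32 without replicate 1. Of 10 Polycomb and Trithorax genes, which encode chromatin proteins that keep Hox genes off or on, 6 lay lower with a median of -0.012 with all arrays, but 3 lay lower with a median of 0.024 without replicate 1. With all arrays 0 had an unadjusted p under 0.05, and 1 was separated, lower, against 6.60% of all genes. A list drawn up for regulators of hindbrain Hox expression had 3 measured genes, and a place in it is not evidence of that role. Of the 3, 2 lay lower (Vgll2 at -0.40 and Kmt2a at -0.0024) and 1 lay higher (Egr2 at 0.38). With all arrays 0 of the 3 had an unadjusted p under 0.05. Egr2, the activator of Hox genes in the hindbrain, read 7.38, 8.45 and 8.56 in the double knockout and 7.91, 7.57 and 7.76 in the single knockout, so double knockout replicate 1 was the lowest of the 6 arrays and replicates 2 and 3 were the highest. Without replicate 1 the differences were -0.21 for Vgll2, 0.0060 for Kmt2a and 0.76 for Egr2. The Egr2 value then had an SE of 0.11, an unadjusted limma p of 0.00035 and a limma adjusted p of 0.602. Of 6 genes that flank the cluster on the same chromosome, 4 lay higher and 2 lower (median 0.0063) with all arrays, but 4 lay lower (median -0.048) without replicate 1. Tax1bp1, an autophagy adaptor gene, was separated and higher by 0.10 (0.12 without replicate 1), and 4.85% of all genes were separated in that direction. With all arrays 0 of the 6 had an unadjusted p under 0.05.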

How the data were processed

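RNA of whole embryos was hybridised to 6 single-colour Affymetrix arrays, 3 per genotype, after Trizol and RNeasy extraction, per the labels' protocols. The authors deposited a log2 value for each of 45101 probe sets, computed by RMA per the submitters' processing notes, with no version named in the sources used here. RMA corrects background, equalises the arrays and summarises probes, and it compresses differences near background. The number of arrays limits the precision, and the scale was read from the values (2.64 to 15.2).

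Probe sets were named through the platform annotation (34945 with 1 symbol, 932 with several, 9160 with none, 64 controls), and the brightest probe set stood for each of 18193 genes. Groups were compared with limma 3.58.1 in R 4.3.3, two-sided, with Benjamini-Hochberg adjustment over all genes and a threshold of 0.05. Single values also had an exact permutation test. Named genes were the members, Fzd2 and Fzd7, the paralogs, genes of the fixed lists with the smallest unadjusted p, and the genes nearest to the mean HoxA profile. The members and lists were chosen with earlier results of these data known. Scripts were tested on simulated data. Alternatives covered the replicate block, variance model, dim genes, probe set choice, scaling, array weights, threshold and each array left out.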

Additional observations from a re-analysis of the deposited data

How the results depend on the processing

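Over 14 alternative settings, 107 of 109 HoxA gene differences kept their direction and stayed short of the threshold, and the smallest adjusted p was 0.346 (limma). The 2 that turned were Hoxa2, at 0.020 without double knockout replicate 1 (-0.55 to 0.020 with 1 array left out), and Hoxa10, at -0.012 without single knockout replicate 3 (-0.012 to 0.58). Hoxa5 ranged from -0.78 to -0.52 and Hoxa9 from -1.42 to -0.50. The median over the members ranged from -0.56 to -0.21 with 1 array left out, and 5 to 7 of 8 members lay lower. For the dim gene setting, dim meant a mean below the median over all genes, 7.10. With such genes left out 5 members were tested, and Hoxa4, Hoxa10 and Hoxa11 were not. The brightest probe sets of Hoxa10 and Hoxa11 still lay above the array medians of 5.79 to 5.82. The count of all genes called lower was 1 (Fzd2) with all arrays, 0 with the mean of probe sets, 2 with every probe set tested, and 0 to 1 with 1 array left out (0 without double knockout replicate 3 or any 1 of the single knockout replicates); the cause was not tested. The replicate block gave 1 call as well and adjusted p = 0.521 for Hoxa5. No pairing by replicate number is stated in the labels. Deviations of same-numbered arrays correlated at 0.09, -0.04 and -0.13, and 1 of 3 arrays per group correlated best with its own number. Such correlations, from 3 arrays per group, do not show a pairing and cannot exclude one.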

Other observations

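Further transcripts lie at the posterior end of the cluster, and they were chosen for their position after values of these data were seen. Hoxa13, which acts in the limb tips and the end of the body, read 4.36, 4.39 and 4.45 in the double knockout and 4.33, 4.66 and 4.43 in the single knockout, below the array medians, and differed by -0.071 (SE 0.09, n = 3 per group, limma adjusted p = 0.907), or -0.053 without double knockout replicate 1. Hoxa11os, the antisense transcript of Hoxa11, was also dim and differed by -0.014 (SE 0.17), or 0.10 without that array, with groups that overlapped.

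Outside the cluster, the gene whose 6 array values ran closest to the mean HoxA profile was the phosphatase gene Ptp4a3, at a root mean square distance of 0.035 log2 units over 6 arrays after centring on the single knockout mean. It read 6.72, 7.18 and 7.18 in the double knockout, against 7.37, 7.38 and 7.28 in the single knockout. Zfp827 and Nim1k followed at 0.039 and 0.046. All of these profiles share the low value of double knockout replicate 1, and a search over all genes returns near profiles by its construction.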
